A study of Mus musculus with 5 samples.

Results

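The mitosis genes described here are 47 genes for entry into mitosis, the spindle, the spindle checkpoint, chromosome segregation and cytokinesis. They were picked by gene symbol from the 55573 genes of the count table, by a rule that uses no measured value, although earlier results of these data were known when the genes were chosen. All 47 were among the 15191 genes that could be tested. By role they fell into 8 groups, namely CDK1-cyclin control (10 genes), mitotic kinases and spindle assembly (6 genes), the spindle checkpoint (5 genes), the anaphase-promoting complex and separase (4 genes), the chromosomal passenger complex (4 genes), centromere and kinetochore (7 genes), chromosome structure (7 genes) and cytokinesis (4 genes).

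The cells were Neuro-2A (N2A), an immortal mouse line grown from a neuroblastoma, a tumour of the sympathetic nervous system, and they cycle continuously in culture. Cells were given 60 pmol of siRNA, either a commercial negative control (siCtl, 2 libraries, replicates 1 and 3) or an siRNA against Upf1 (siUpf1, 3 libraries, replicates 1, 2 and 3). UPF1 is an RNA helicase that nonsense-mediated mRNA decay (NMD) cannot work without, and the comparison asks which transcripts change in level when it is depleted. The study calls its immunoblots of these siRNA-treated cells independent experiments, and neither it nor the labels say so of the libraries, so the p-values measure the spread between these libraries. All values are from 1 cell line and 1 Upf1 siRNA.

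A cell enters mitosis when cyclin-dependent kinase 1, bound to cyclin B, is freed from inhibitory phosphorylation by CDC25 phosphatases, which act against the kinases WEE1 and PKMYT1. Chromosomes then attach to the spindle through kinetochores, and unattached kinetochores feed the spindle checkpoint, which holds back the anaphase-promoting complex (APC/C) and its activator CDC20 until every chromosome is attached. Once released, the APC/C has securin and cyclin B degraded, separase cuts cohesin and the cell divides. Most of these mRNAs are made in G2 and mitosis, under MuvB complexes that bind a promoter element called the cell cycle genes homology region (CHR), together with the factors FOXM1 and B-MYB and with NF-Y, which binds CCAAT boxes.

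These promoter elements were read in the RefSeq promoter table (build GRCm38.p6), where 37 of the 47 genes had an entry, each running from 250 bases before the transcription start to 50 after it. The letters searched were TTTGAA and TTCGAA for the CHR and CCAAT for NF-Y, on both strands (TTCGAA reads the same on either), and none of these motifs contains another. The promoters below were chosen among called genes whose sequence could be shown, as those with the largest falls (Pttg1, Aurka and Ccnb2) and the largest rises (Ttk and Birc5) after knockdown. They are shown 5′ to 3′ on the strand of the gene, with every CHR and CCAAT match in capitals. Pttg1 lies at chr11:43425932-43426231 on the minus strand, Aurka at chr2:172370521-172370820 on the minus strand, Ccnb2 at chr9:70421505-70421804 on the minus strand, Ttk at chr9:83834439-83834738 on the plus strand and Birc5 at chr11:117848987-117849286 on the plus strand.
Pttg1: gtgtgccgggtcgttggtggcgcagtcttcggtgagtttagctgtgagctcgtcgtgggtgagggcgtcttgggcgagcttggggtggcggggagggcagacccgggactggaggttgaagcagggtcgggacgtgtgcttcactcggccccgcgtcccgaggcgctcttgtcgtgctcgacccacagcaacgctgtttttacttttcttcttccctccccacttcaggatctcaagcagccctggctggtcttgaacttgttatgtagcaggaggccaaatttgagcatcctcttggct
Aurka: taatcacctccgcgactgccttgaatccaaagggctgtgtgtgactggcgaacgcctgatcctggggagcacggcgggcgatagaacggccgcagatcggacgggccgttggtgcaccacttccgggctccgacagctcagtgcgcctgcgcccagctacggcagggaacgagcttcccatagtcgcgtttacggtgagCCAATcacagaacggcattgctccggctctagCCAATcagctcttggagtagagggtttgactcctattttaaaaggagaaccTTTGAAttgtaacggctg
Ccnb2: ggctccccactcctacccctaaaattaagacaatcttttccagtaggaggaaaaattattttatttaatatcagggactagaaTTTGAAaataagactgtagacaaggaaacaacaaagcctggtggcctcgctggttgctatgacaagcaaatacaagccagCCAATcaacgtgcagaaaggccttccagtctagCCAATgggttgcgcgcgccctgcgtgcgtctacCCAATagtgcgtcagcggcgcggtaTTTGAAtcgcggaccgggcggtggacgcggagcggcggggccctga
Ttk: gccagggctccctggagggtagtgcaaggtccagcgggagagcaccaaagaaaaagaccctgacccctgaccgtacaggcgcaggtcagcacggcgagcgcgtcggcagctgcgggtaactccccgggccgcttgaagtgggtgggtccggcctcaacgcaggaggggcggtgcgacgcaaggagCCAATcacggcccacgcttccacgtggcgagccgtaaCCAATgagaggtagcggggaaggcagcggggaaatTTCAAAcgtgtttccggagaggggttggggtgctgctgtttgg
Birc5: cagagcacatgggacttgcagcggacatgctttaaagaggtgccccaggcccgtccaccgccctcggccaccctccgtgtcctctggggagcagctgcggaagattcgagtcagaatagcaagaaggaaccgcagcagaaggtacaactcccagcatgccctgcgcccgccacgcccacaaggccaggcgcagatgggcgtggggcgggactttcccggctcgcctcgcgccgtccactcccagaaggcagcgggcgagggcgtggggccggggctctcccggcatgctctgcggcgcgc

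The promoter of Aurka held CCAAT 51 and 19 bases before the start and TTTGAA from base 33 after it. In Ccnb2, CCAAT stood 87, 54 and 21 bases before the start, and TTTGAA stood 167 bases before it and again from base 5 after it. Ttk, which rose, had the same order of elements as Aurka, with CCAAT 65 and 28 bases before the start and the CHR on the other strand, read as TTCAAA, from base 8 after it. Pttg1 and Birc5 held none of these letters in the window. The Pttg1 window, set by the RefSeq start, lies wholly inside the gene as GENCODE M21 annotates it (chr11:43420250-43426251, minus strand). The bases before that GENCODE 5′ end were not searched. A match is a description of letters and not a binding site, and a missing match says only that the letters are not in this window.

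Over the 37 promoters, 28 (75.7%) held a CHR in either spelling, against 13.9% of the promoters of 10710 tested genes and 19.2% of all 32851 promoters of the table. CCAAT was present in 29 (78.4%), against 39.2% and 37.4% in the same 2 sets. Both motifs were present in 26 (70.3%), against 5.97% and 7.52%. Within 50 bases of the start on either side, 26 promoters (70.3%) held a CHR, against 3.46% of tested genes and 5.31% of all. The shares by call are a description, and their differences were not tested. A CHR was found in 15 of 18 promoters (83.3%) of genes that fell, in 12 of 16 (75.0%) of genes that were not called and in 1 of 3 of genes that rose. For CCAAT the same counts were 15 of 18, 12 of 16 and 2 of 3.

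**Figure D1:**
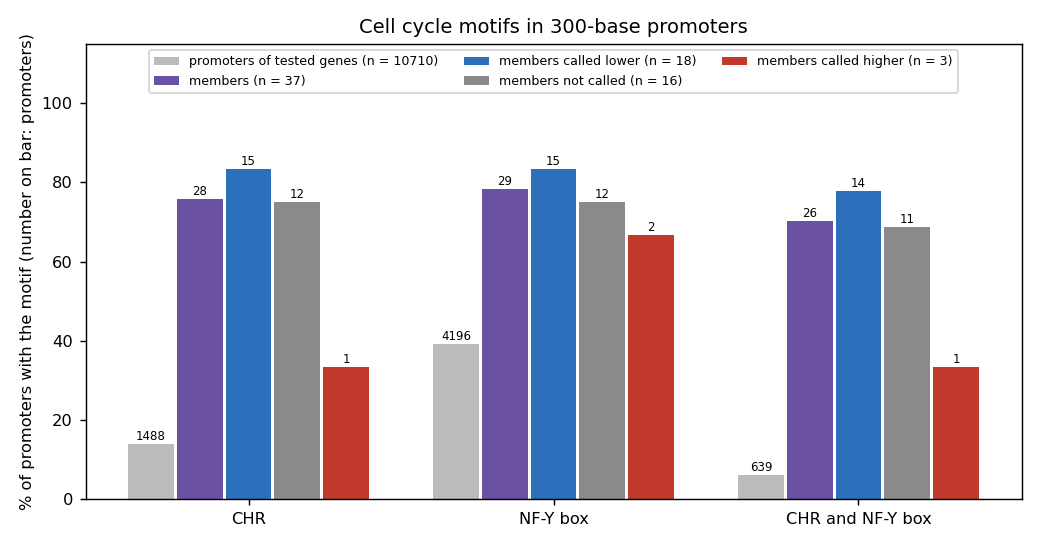
Share of 300-base RefSeq promoters (vertical axis, percent) that held a CHR, an NF-Y box or both, for tested genes, the mitosis genes and the mitosis genes by DESeq2 call, with the number of promoters above each bar. The mitosis genes stand at 75.7%, 78.4% and 70.3%, against 13.9%, 39.2% and 5.97% of tested genes, and the set that rose holds 3 promoters.

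Assigned counts were 20402205 to 27717594 per library. Upf1 itself had 5217 and 5243 normalised read counts in siCtl replicates 1 and 3, and 2403, 2496 and 2449 in siUpf1 replicates 1, 2 and 3. All siUpf1 libraries were far below both controls, at 46.8% of the control mean (log2 fold change -1.10, standard error (SE) 0.05, DESeq2 adjusted p = 7.09e-101). Of 10 neuroblastoma markers 9 could be tested, and their summed level was 17200 to 17210 in siCtl and 24100 to 24510 in siUpf1, with 7 higher and 1 lower. Summed fibroblast markers were at 223 to 306, with 2 of 6 (Col3a1 and Lum) at 0 in every library, glial markers at 478 to 560 and immune markers at 33.0 to 41.9. The part of the neuroblastoma marker shift in the values below was not tested.

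The control libraries differed from each other over the mitosis genes. In 40 of the 47 genes (85.1%) siCtl replicate 3 was above siCtl replicate 1, against 51.2% of all tested genes, and 24 of the 47 had their highest value of all 5 libraries in siCtl replicate 3. Relative to the control mean on the log2 scale, the median mitosis gene stood at -0.04 in siCtl replicate 1 and 0.04 in siCtl replicate 3. In siUpf1 replicates 1, 2 and 3 it stood at -0.09, -0.14 and -0.17. The 2 controls thus lay about as far apart as siUpf1 replicate 1 lay from their mean, and the total number of mitosis genes called is given below with and without each control.

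After Upf1 knockdown 22 of the 47 mitosis genes fell (46.8%) and 7 rose (14.9%), while 18 were not called at a DESeq2 adjusted p-value under 0.05. Over all tested genes 44.9% were called, 22.9% lower and 22.0% higher. Detection improves with counts, so the nearer comparison is with the 8069 tested genes whose mean was at or above that of the lowest mitosis gene, of which 32.6% were lower and 29.8% higher. Normalised counts of the groups did not overlap in 34 mitosis genes (72.3%), 26 of them lower and 8 higher, against 69.4% of all tested genes. That share was not computed for the 8069 genes.

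The changes were small. The median log2 fold change was -0.09 over the 47 genes and 0.00 (-0.0024) over all tested genes. The called mitosis genes had a median absolute log2 fold change of 0.26, against 0.43 over all called genes, and 5 of the 47 (10.6%) passed 0.5 in size, against 27.0% of all tested genes. The 0.43 and the 27.0% include genes with lower means than any mitosis gene. They were not computed for the 8069 tested genes at or above the mean of the lowest mitosis gene. The span ran from -0.72 for Cdc25c to 0.50 for Incenp. In bulk RNA, fewer cells in mitosis and less mRNA per cell cannot be told apart. Leaving out siCtl replicate 1 gave 20 lower, 2 higher and a median of -0.16, and leaving out siCtl replicate 3 gave 13 lower, 4 higher and a median of -0.07. Without siUpf1 replicate 1 the counts were 23 and 4 with a median of -0.14, and without siUpf1 replicate 3 they were 18 and 4 with a median of -0.06. Shares of all tested genes called in fits without a library are not given here. Whether the loss of calls is particular to the mitosis genes was therefore not tested.

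**Figure D2:**
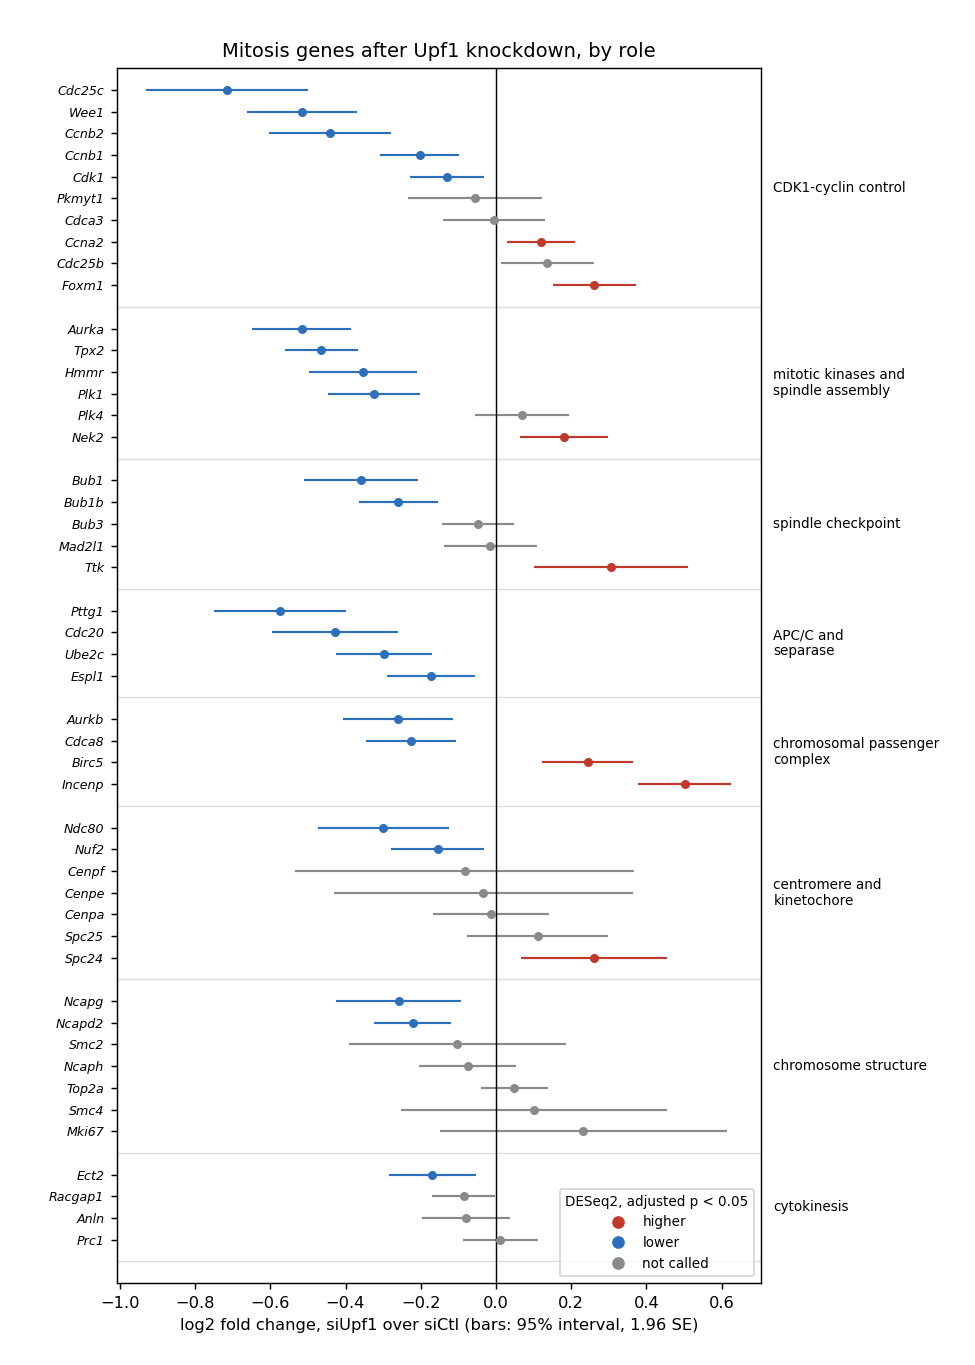
DESeq2 log2 fold change of siUpf1 over siCtl (horizontal axis) for each of the 47 mitosis genes, grouped by role, with bars for the 95% interval and colour for the call. All 4 genes of the APC/C and separase group lie below 0, and Cdc25c at -0.72 and Incenp at 0.50 are the ends of the range.

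No role group below was tested against a background. Of tested genes at or above the mean of the lowest mitosis gene, 32.6% fell and 29.8% rose. Among the 10 genes of CDK1-cyclin control, 5 fell and 2 rose, with a median log2 fold change of -0.09. The largest fall of all 47 genes was here, and the changes included genes that set the phosphorylation of CDK1 from both sides. Cdc25c, a phosphatase that activates CDK1, had 628.9 and 626.4 normalised read counts in siCtl and 378.0, 374.0 and 394.0 in siUpf1. The 2 controls were nearly equal, the 3 knockdown libraries lay close together, and the groups were well apart, at 60.9% of control (log2 fold change -0.72, SE 0.11, DESeq2 adjusted p = 5.04e-10).

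Wee1, the kinase that inhibits CDK1, had 1626 and 1559 normalised counts in siCtl and 1147, 1045 and 1144 in siUpf1. It fell to 69.8% of control without overlap (log2 fold change -0.52, SE 0.07, DESeq2 adjusted p = 5.63e-11). Pkmyt1, the membrane-bound kinase with the same function, was at 96.4% of control and was not called (adjusted p = 0.659 in DESeq2). Cdc25b, a phosphatase that acts earlier than CDC25C, had a log2 fold change of 0.14 that DESeq2 did not call (adjusted p = 0.0669) and edgeR did (adjusted p = 0.0208).

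Of the mitotic cyclins, Ccnb2 (cyclin B2) had 1116 and 1203 normalised counts in siCtl and 857.4, 876.0 and 832.6 in siUpf1. All knockdown libraries were below both controls, and the log2 fold change was -0.44 (SE 0.08, DESeq2 adjusted p = 4.91e-07). Ccnb1 (cyclin B1) fell less, to 86.9% of control (log2 fold change -0.20), and Cdk1 itself to 91.4% (-0.13). Ccna2 (cyclin A2), which acts in S phase and at mitotic entry, rose to 108.6% of control (0.12). Foxm1, the transcription factor of the mitotic genes, rose to 120.0% (0.26, SE 0.06, DESeq2 adjusted p = 1.30e-05).

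The calls of Cdc25c, Wee1 and Ccnb2 held under each of the 12 alternatives run, and that of Foxm1 under 11. Foxm1 was lost only with a term for the replicate number (DESeq2 adjusted p = 0.0579). The small changes of Ccna2, Ccnb1 and Cdk1 were lost in more of them. Without siCtl replicate 3 the DESeq2 adjusted p was 0.203 for Ccna2, 0.133 for Ccnb1 and 0.308 for Cdk1. The call of Ccna2 was also lost without siCtl replicate 1 (0.171), siUpf1 replicate 1 (0.0879) or siUpf1 replicate 3 (0.0648), and that of Cdk1 without siUpf1 replicate 3 (0.173).

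**Figure D3:**
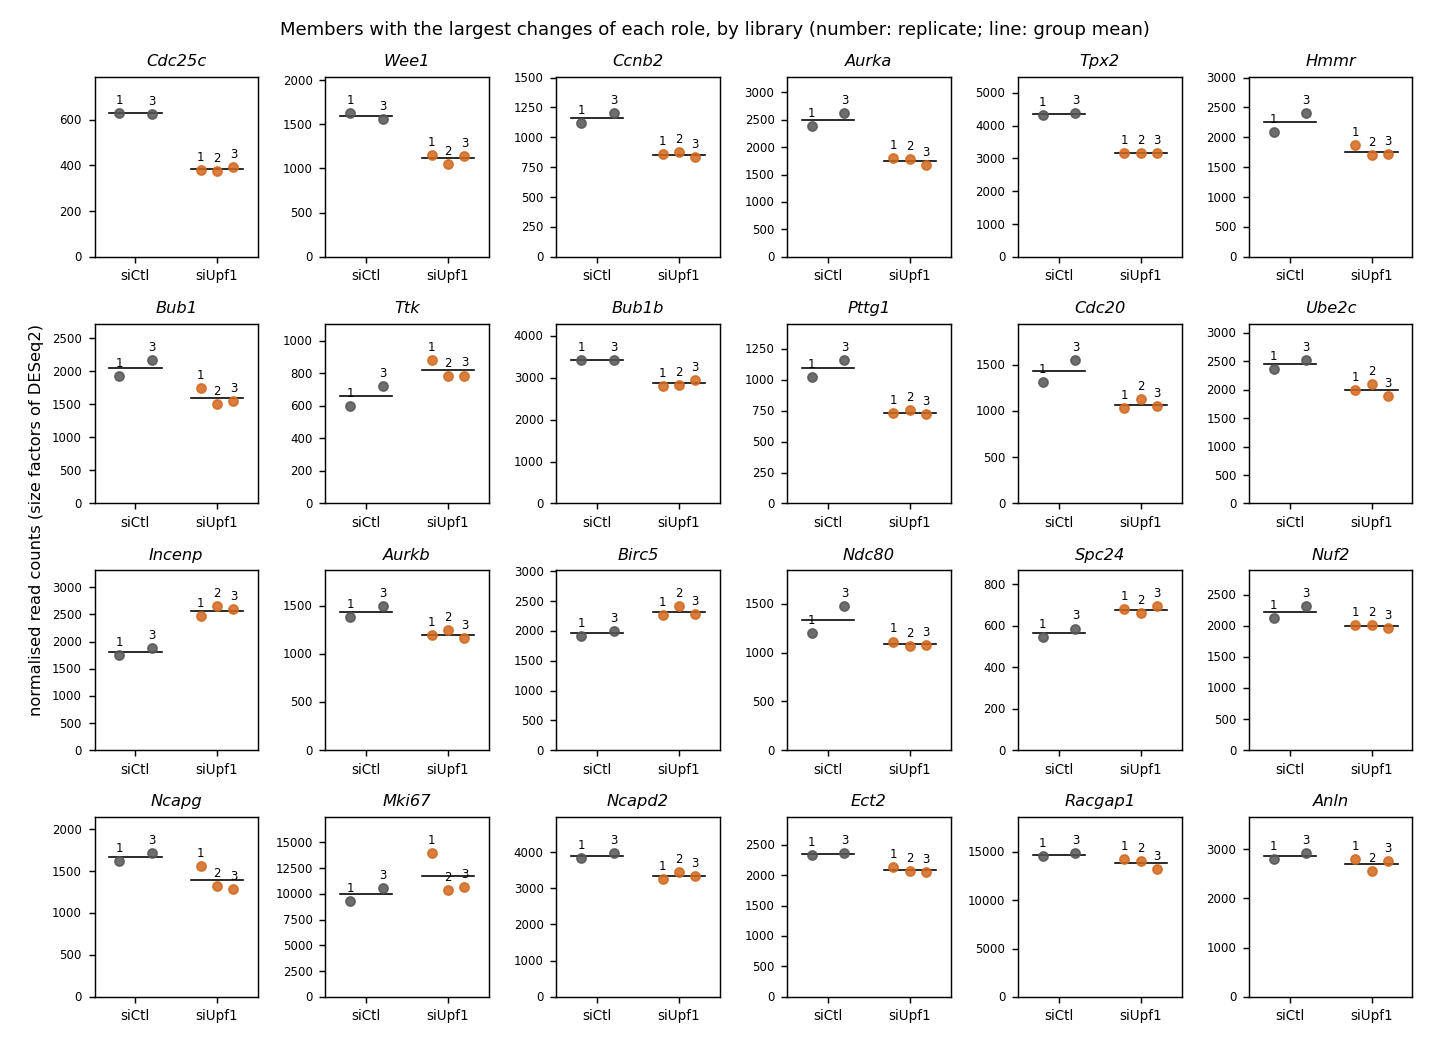
Normalised read counts (vertical axes, each from 0) of the 3 genes with the largest absolute log2 fold change in each role group, with 1 point per library, the replicate number above it and a line at the group mean. Cdc25c, Tpx2 and Pttg1 separate the groups widely, while in Mki67 and Ncapg siUpf1 replicate 1 stands above the other siUpf1 libraries.

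In the group of mitotic kinases and spindle assembly 4 of 6 genes fell (66.7%) and 1 rose (16.7%), with a median log2 fold change of -0.34. The shares were 32.6% and 29.8% among tested genes at or above the mean of the lowest mitosis gene. The 4 that fell work together at the spindle: TPX2 binds and activates Aurora A, HMMR keeps TPX2 at spindle poles, and Polo-like kinase 1 matures the centrosome. Aurka (Aurora A kinase) had 2384 and 2621 normalised counts in siCtl and 1801, 1785 and 1667 in siUpf1. The gap between the groups was wider than the spread within either, with siUpf1 at 70.0% of control (log2 fold change -0.52, SE 0.07, DESeq2 adjusted p = 1.58e-13).

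Tpx2 had 4339 and 4385 normalised counts in siCtl and 3159, 3157 and 3169 in siUpf1. The siUpf1 libraries had the smallest SD of the 47 genes (mean 3161 ± 6.59, SD, n = 3), and the fall was to 72.5% of control (log2 fold change -0.46, SE 0.05, DESeq2 adjusted p = 1.07e-19). Hmmr had 2092 and 2405 normalised counts in siCtl and 1865, 1698 and 1715 in siUpf1. Its controls differed by more than its knockdown libraries did, the groups did not overlap, and the log2 fold change was -0.35 (SE 0.07, DESeq2 adjusted p = 7.53e-06).

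Plk1 fell to 80.0% of control (log2 fold change -0.32). Nek2, a kinase that splits the centrosomes, rose to 113.3% (0.18), and Plk4, which starts centriole duplication, had a log2 fold change of 0.07 and was not called. Aurka, Tpx2, Hmmr and Plk1 were called lower under all 12 alternatives, and the call of Nek2 was lost without siCtl replicate 1 (DESeq2 adjusted p = 0.146), without siCtl replicate 3 (0.0610) and without siUpf1 replicate 3 (0.0749).

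Of the 5 spindle checkpoint genes 2 fell, 1 rose and 2 were not called, with a median log2 fold change of -0.05. The BUB1 kinase and BUBR1 (Bub1b), which sit at unattached kinetochores, moved down, and the kinase MPS1 (Ttk), which starts the signal there, moved up. Bub1 had 1934 and 2178 normalised counts in siCtl and 1743, 1507 and 1555 in siUpf1. Replicate 1 of siUpf1 came nearest to the controls without reaching them, and the log2 fold change was -0.36 (SE 0.08, DESeq2 adjusted p = 1.74e-05).

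Bub1b had 3421 and 3426 normalised counts in siCtl and 2802, 2835 and 2943 in siUpf1. It fell to 83.5% of control without overlap (log2 fold change -0.26, SE 0.05, DESeq2 adjusted p = 6.27e-06). Ttk had 598.5 and 723.6 normalised counts in siCtl and 883.1, 783.2 and 786.2 in siUpf1. All siUpf1 libraries were above both controls, although siCtl replicate 3 came close to the lowest of them, and the log2 fold change was 0.31 (SE 0.10, DESeq2 adjusted p = 0.00909). Without siCtl replicate 1 it was 0.17 (adjusted p = 0.335) and without siUpf1 replicate 1 it was 0.25 (adjusted p = 0.0922), both not called.

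Bub3 and Mad2l1, the checkpoint's other 2 genes here, had log2 fold changes of -0.05 and -0.01. Their 95% intervals were -0.14 to 0.05 and -0.14 to 0.11.

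All 4 genes of the APC/C and separase group fell, with a median log2 fold change of -0.36. Of tested genes at or above the mean of the lowest mitosis gene 32.6% fell. The group holds the activator, the E2 enzyme, the substrate securin and separase, which securin inhibits, and none of the APC/C subunits. A separate list of 17 APC/C subunits and regulators, described further on, had 3 lower and 3 higher with a median of 0.01. Securin (Pttg1), the inhibitor of separase and a substrate of the APC/C, had 1021 and 1162 normalised counts in siCtl and 730.2, 755.6 and 719.4 in siUpf1. The lowest control was well above the highest knockdown library, and the fall was to 67.3% of control (log2 fold change -0.57, SE 0.09, DESeq2 adjusted p = 1.23e-09).

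Cdc20, the activator that the checkpoint holds back, had 1314 and 1554 normalised counts in siCtl and 1027, 1126 and 1051 in siUpf1. Its log2 fold change was -0.43 (SE 0.09, DESeq2 adjusted p = 2.99e-06), with no overlap although the controls differed more than the knockdown libraries. Ube2c, the ubiquitin-conjugating enzyme that works with the APC/C, had 2373 and 2528 normalised counts in siCtl and 1995, 2103 and 1894 in siUpf1. It fell to 81.5% of control (log2 fold change -0.30, SE 0.07, DESeq2 adjusted p = 2.34e-05). Separase itself (Espl1) fell to 88.8% (-0.17), a call that was lost without siCtl replicate 1 (DESeq2 adjusted p = 0.151), without siCtl replicate 3 (0.0652) and without siUpf1 replicate 1 (0.0878). The calls of Pttg1, Cdc20 and Ube2c held under all 12 alternatives.

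The chromosomal passenger complex divided evenly. It is made of the kinase Aurora B (Aurkb), its scaffold INCENP, survivin (Birc5) and borealin (Cdca8), and it corrects faulty attachments at centromeres and later works in cytokinesis. The kinase and borealin fell, and the scaffold and survivin rose. Incenp had 1754 and 1876 normalised counts in siCtl and 2472, 2649 and 2597 in siUpf1. Every siUpf1 library was above both controls, at 141.8% of control in the mean (log2 fold change 0.50, SE 0.06, adjusted p = 1.84e-14 in DESeq2), the largest rise of the 47 genes and the only one of the 7 rises that was called under all 12 alternatives.

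Aurkb had 1379 and 1492 normalised counts in siCtl and 1196, 1244 and 1162 in siUpf1. The groups did not overlap, and the log2 fold change was -0.26 (SE 0.08, DESeq2 adjusted p = 0.00169). Birc5 had 1912 and 2004 normalised counts in siCtl and 2271, 2412 and 2278 in siUpf1. It rose to 118.5% of control without overlap (log2 fold change 0.24, SE 0.06, DESeq2 adjusted p = 0.000325). Cdca8 fell to 85.7% (-0.22). The call of Aurkb was lost without siCtl replicate 3 (-0.20, adjusted p = 0.132), as was that of Cdca8 (-0.18, adjusted p = 0.0898), and the call of Birc5 without siCtl replicate 1 (0.21, adjusted p = 0.0520).

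Among 7 centromere and kinetochore genes 2 fell (28.6%) and 1 rose (14.3%), with a median log2 fold change of -0.03. Those called were 3 of the 4 subunits of the NDC80 complex, which holds microtubules at the kinetochore, and they did not move in 1 direction. Ndc80 had 1201 and 1474 normalised counts in siCtl and 1114, 1067 and 1081 in siUpf1. The knockdown libraries were close together and siCtl replicate 1 lay not far above them, and the log2 fold change was -0.30 in DESeq2 (SE 0.09, adjusted p = 0.00226) but -0.15 without siCtl replicate 3 (adjusted p = 0.329).

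Spc24 had 546.1 and 586.8 normalised counts in siCtl and 680.4, 661.4 and 693.5 in siUpf1. Its log2 fold change was 0.26 (SE 0.10, DESeq2 adjusted p = 0.0209), with no overlap. Nuf2 had 2125 and 2312 normalised counts in siCtl and 2005, 2011 and 1966 in siUpf1. It was at 89.9% of control (log2 fold change -0.155, SE 0.06, DESeq2 adjusted p = 0.0331). Both calls were weak: that of Spc24 was lost when any 1 of 4 libraries was left out (adjusted p from 0.0724 to 0.256, without siCtl replicate 1, siCtl replicate 3, siUpf1 replicate 1 or siUpf1 replicate 3), and that of Nuf2 without siCtl replicate 3 or any 1 siUpf1 library (0.0673 to 0.441). Spc25, the remaining subunit, had a log2 fold change of 0.11 and was not called.

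The histone H3 variant of centromeres (Cenpa) was at 99.3% of control, with a 95% interval of the log2 fold change from -0.17 to 0.14. Cenpe, a kinetochore motor, and Cenpf, a large kinetochore protein, had log2 fold changes of -0.03 and -0.08 with intervals of -0.43 to 0.36 and -0.53 to 0.37, the widest of the group.

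Of 7 chromosome structure genes 2 fell (28.6%) and none rose, with a median log2 fold change of -0.08 (DESeq2). Condensin, which compacts mitotic chromosomes, was represented by its core pair SMC2 and SMC4 and by the subunits NCAPD2, NCAPG and NCAPH, and the called genes were Ncapg and Ncapd2. Ncapg had 1621 and 1714 normalised counts in siCtl and 1565, 1324 and 1288 in siUpf1. The groups did not overlap, but siUpf1 replicate 1 was close to siCtl replicate 1, and a log2 fold change of -0.26 resulted (SE 0.08, DESeq2 adjusted p = 0.00625), which was not called without siCtl replicate 3 (adjusted p = 0.149) or without siUpf1 replicate 3 (adjusted p = 0.0815).

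Ncapd2 had 3839 and 3972 normalised counts in siCtl and 3263, 3454 and 3338 in siUpf1. It fell to 85.8% of control (log2 fold change -0.22, SE 0.05, DESeq2 adjusted p = 9.48e-05), and was called under every alternative. Mki67, the Ki-67 proliferation marker that coats mitotic chromosomes, had 9312 and 10610 normalised counts in siCtl and 13970, 10410 and 10710 in siUpf1. The groups overlapped, 1 knockdown library stood far above the rest, and the log2 fold change of 0.23 (SE 0.19) was not called by DESeq2 (adjusted p = 0.353), although edgeR called it (adjusted p = 0.0384). Without siUpf1 replicate 1 the log2 fold change of Mki67 was 0.08, and DESeq2 did not call it. Top2a, the topoisomerase that untangles sister chromatids, had a log2 fold change of 0.05 with an interval of -0.04 to 0.14.

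In cytokinesis 1 of 4 genes fell (25.0%), with a median log2 fold change of -0.08. Ect2, the exchange factor that activates RhoA for the contractile ring, had 2331 and 2361 normalised counts in siCtl and 2140, 2072 and 2048 in siUpf1. It fell to 88.9% of control without overlap (log2 fold change -0.17, SE 0.06, DESeq2 adjusted p = 0.0118). This call was lost without siCtl replicate 1 (adjusted p = 0.0886), without siCtl replicate 3 (adjusted p = 0.144) and without siUpf1 replicate 3 (adjusted p = 0.0821).

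Racgap1, the partner that recruits ECT2 to the midzone, had 14540 and 14880 normalised counts in siCtl and 14270, 14050 and 13280 in siUpf1. Its groups did not overlap, but the log2 fold change of -0.09 (SE 0.04) was not called (DESeq2 adjusted p = 0.0925), except without siUpf1 replicate 1 (-0.11, adjusted p = 0.0381). Anln, a scaffold of the contractile ring, had 2796 and 2919 normalised counts in siCtl and 2790, 2554 and 2756 in siUpf1. The highest knockdown library was just below the lowest control, and the log2 fold change of -0.08 (SE 0.06) was not called (DESeq2 adjusted p = 0.286). Prc1, the bundler of midzone microtubules, was at 100.8% of control.

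A set of 6 genes had higher counts in siUpf1 replicate 1 than in the other siUpf1 libraries. Against the mean of replicates 2 and 3, siUpf1 replicate 1 was higher by 0.46 on the log2 scale in Cenpf, 0.44 in Cenpe, 0.40 in Mki67, 0.40 in Smc4, 0.31 in Smc2 and 0.26 in Ncapg. More than 0.25 was thus reached by 12.8% of the mitosis genes, against 3.17% of the 10457 tested genes that averaged 100 or more normalised counts. Their representative mRNAs were 3703 to 11130 nt long with a GC content of 39.7 to 46.6%. Of the 7 mitosis mRNAs over 5000 nt 5 were higher in siUpf1 replicate 1, with a median of 0.31, while Espl1 (6658 nt) was at -0.16. Over 2135 tested mRNAs of that length the median was 0.01.

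Without siUpf1 replicate 1, Cenpe (log2 fold change -0.20, DESeq2 adjusted p = 0.0329) and Smc2 (-0.21, adjusted p = 0.0121) were called lower, where with all libraries their values were -0.03 and -0.10. The part of transcript length and GC content in this spread was not tested.

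**Figure D4:**
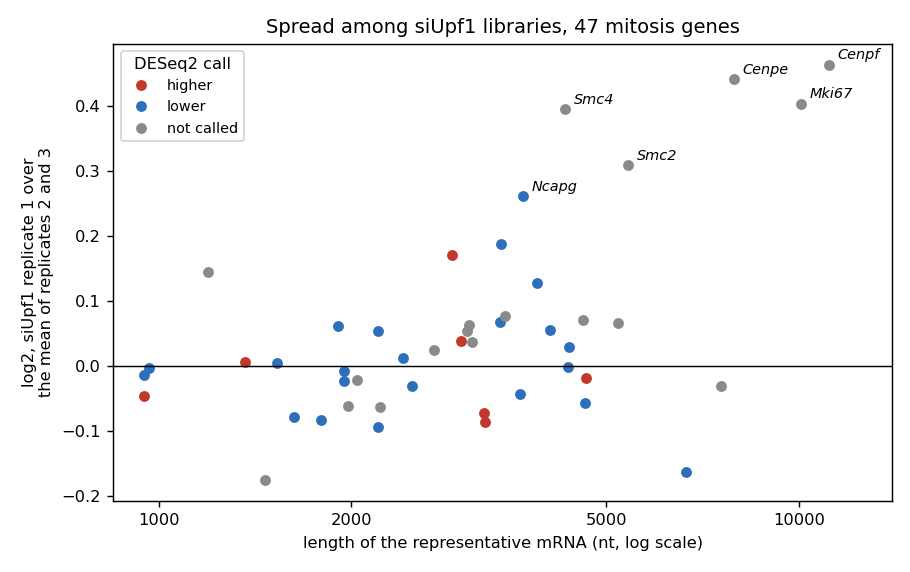
Log2 ratio of normalised counts in siUpf1 replicate 1 over the mean of siUpf1 replicates 2 and 3 (vertical axis) against the length of the representative mRNA in nt (horizontal log axis), for the 47 mitosis genes coloured by DESeq2 call. The 6 named genes lie above 0.25, up to 0.46 for Cenpf at 11130 nt.

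Levels between genes were compared per length, in FPKM, which divides a gene's counts by its exon length and by the assigned counts of the library. In siCtl the highest mean levels were those of Racgap1 (82.4 FPKM), Top2a (71.1 FPKM), Cdk1 (47.5 FPKM) and Plk1 (46.7 FPKM). The lowest were those of Ttk (5.33 FPKM) and Cdc25c (5.06 FPKM). A level is summed over all annotated exons of a gene, so a gene with long unused exons is set too low.

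Features of the mRNAs are given as a description, with no test. The median length of the representative 3′ UTR was 433 nt in genes that fell, 735 nt in genes that rose and 685 nt in those not called, against 986 nt over 12591 tested mRNAs. An isoform annotated as an NMD substrate was present for 16 of the 47 genes (34.0%), against 28.4% of tested mRNAs. It was present for 8 of 22 genes that fell (36.4%), 1 of 7 that rose and 7 of 18 not called (38.9%).

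Both strands of the Upf1 siRNA were searched for 7-base matches to the seed (bases 2 to 8) in the same 3′ UTRs. They were found in 4 of the 47 genes (8.51%), against 15.9% of 12460 tested mRNAs, and in 1 of the 22 that fell. These sites are shown, 5′ to 3′ with 8 bases on either side and the match in capitals, because the seed of an siRNA can also pair with mRNAs other than its target. The guide (antisense) seed matched Ccna2, Birc5 and Mad2l1 (3 sites, the first one shown), and the sense seed matched Hmmr.
Ccna2: tctatttgGATAATTttaattgg
Birc5: tttgtgctGATAATTttgtcctg
Mad2l1: gggacaaaGATAATTccatctaa
Hmmr: taaggtagAACCTTGtctatctc

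Of the 3 genes with a guide match, Ccna2 and Birc5 rose and Mad2l1 was not called, and Hmmr, with a sense match, fell. No more than 4 genes are concerned, and a match does not show that the siRNA acts there.

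Beyond the 47 genes, 5 further lists held 104 other mitosis genes, of which 27 fell and 18 rose (26.0% lower and 17.3% higher, median log2 fold change -0.05). Over all tested genes 22.9% were lower and 22.0% higher, and 43.3% of the 104 genes were called against 44.9%. Among the 8069 tested genes at or above the mean of the lowest mitosis gene, 32.6% were lower and 29.8% higher. The 104 genes were called less often than these, although not all of them reach that mean. Spindle motors and spindle proteins came closest to the pattern of the 47 genes, with 10 of 23 lower and 1 higher (43.5% and 4.35%, median -0.18). Fewer of them were lower without siCtl replicate 3, a fit that leaves 1 control, and 6 were lower without siUpf1 replicate 3. Shares of all tested genes called in those fits are not given here. The largest fall there was that of Nusap1, a microtubule bundler, with 1281 and 1275 normalised counts in siCtl and 853.8, 794.5 and 812.1 in siUpf1 (log2 fold change -0.64, SE 0.08, DESeq2 adjusted p = 2.37e-14). Kif14, a motor of the midbody, was the 1 gene that rose, by 0.61 on the log2 scale.

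Among 31 other kinetochore genes 9 fell and 7 rose (29.0% and 22.6%, median -0.09). Neither share was above the 32.6% and 29.8% of tested genes at or above the mean of the lowest mitosis gene. Not all of the 31 reach that mean. Cenpq, a subunit of the inner kinetochore, fell most, from a mean of 553.2 to 309.6 normalised counts (log2 fold change -0.84), and Zwint, chosen for mention after its values were seen, fell from 10050 to 6254 (-0.68). Knl1, the scaffold on which the checkpoint assembles, had 1007 and 1007 normalised counts in siCtl and 1787, 1285 and 1383 in siUpf1. Replicate 1 of siUpf1 was again the highest, and its rise of 0.56 was not called by DESeq2 without siCtl replicate 1 (adjusted p = 0.130) or without siCtl replicate 3 (0.132).

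Of 17 APC/C subunits and regulators 3 fell and 3 rose (17.6% each, median 0.01). Anapc5, a platform subunit, had 3945 and 3878 normalised counts in siCtl and 8123, 8433 and 8311 in siUpf1. Its rise by 1.08 on the log2 scale (SE 0.04, DESeq2 adjusted p = 9.35e-126) was the only one over 1 in size among the 104 genes, and none of the 47 reached 1. Fzr1, the activator that follows CDC20, fell by 0.26 on the log2 scale, and Fbxo5, the inhibitor EMI1, had 0.15 and was not called (DESeq2 adjusted p = 0.0697). Cohesin and its regulators were called in 3 of 15 genes, from -0.41 for Pds5a to 0.43 for Stag2. Of 18 other mitotic kinases and regulators 4 fell (22.2%) and 5 rose (27.8%). Their range was from -0.42 for Gtse1, a microtubule-binding protein, to 0.76 for Nek9, a kinase upstream of centrosome separation.

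**Figure D5:**
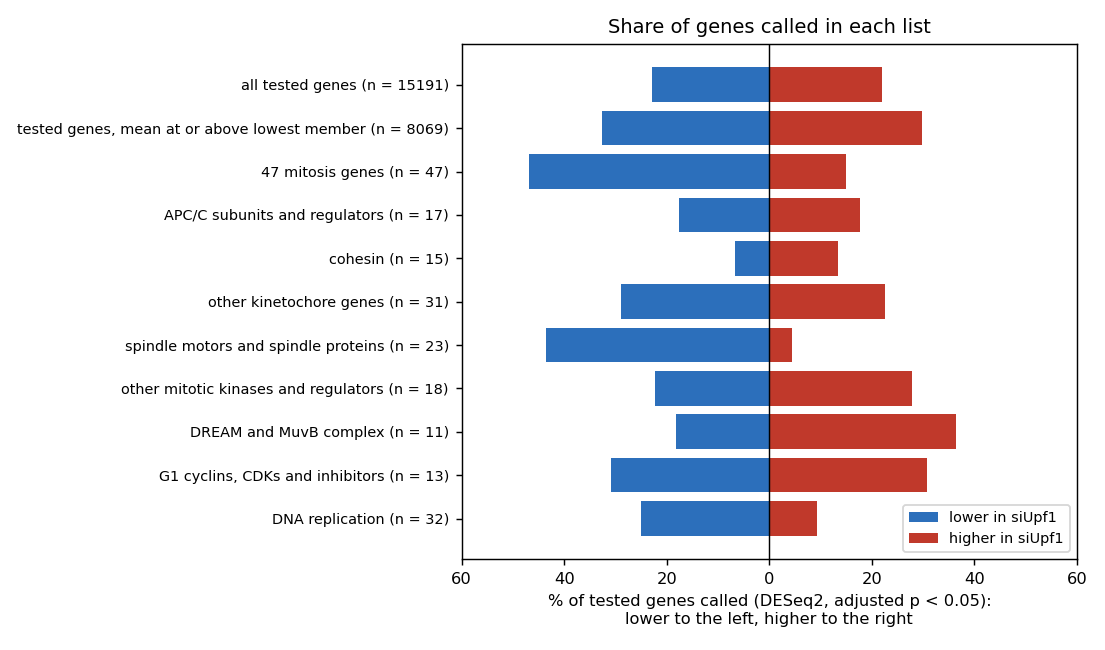
Share of tested genes called by DESeq2 at adjusted p < 0.05 (horizontal axis, percent, lower to the left and higher to the right) for all tested genes, tested genes at or above the mean of the lowest mitosis gene, the 47 mitosis genes and 8 related lists. The 47 mitosis genes stand at 46.8% lower and 14.9% higher, and spindle motors and spindle proteins at 43.5% and 4.35%.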

How the data were processed

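RNA-seq was made by the submitters from polyadenylated RNA of N2A cells with a strand-specific kit. The authors deposited raw read counts per gene, not normalised and not pooled. Per the submitters' processing notes and the study's methods, reads were cleaned with fastp, mapped to GRCm38.p6 with STAR (2.7.0f) and counted per gene with featureCounts (Subread 1.6.4). Which of the GENCODE annotations named was used for these libraries was not given in the sources used here. Such counting leaves out or splits reads shared with near-identical copies, so genes with processed pseudogenes, such as Ccnb1 and Ccnb2, are less certain.

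From the deposited counts, siUpf1 was compared with siCtl over all 5 libraries and all genes with the Wald test of DESeq2 (1.42.0, R 4.3.3), in a model that holds the group alone, with the default size factors and independent filtering of that tool. P-values were adjusted by Benjamini-Hochberg and called at 0.05. This is the study's own test. Normalised counts are counts divided by size factors. The alternatives were edgeR's quasi-likelihood test (4.0.16), TMM or total-count size factors, a minimum of 10 counts in 2 libraries, no independent filtering, fold changes shrunk with a normal prior, a term for the replicate number, and leaving out each library. With 2 libraries against 3 an exact permutation test cannot go below p = 0.1, so none was made. Scripts were tested on simulated data.

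Lengths, positions and 3′ UTRs came from GENCODE M21 (same build), taking 1 representative mRNA per gene, and promoters from RefSeq. The members and all lists were chosen with earlier results of these data known. In each role group the 3 genes with the largest absolute fold change were given in every library, and in each other list the largest called rise and fall. Counting error at 20402205 to 27717594 assigned counts is a lower limit on the error, since PCR duplicates cannot be recognised in counts.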

Additional observations from a re-analysis of the deposited data

How the results depend on the processing

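No called mitosis gene changed sign under any of the 12 alternatives, and of 564 values of single mitosis genes 507 kept their side of the threshold, 51 were no longer called and 6 were newly called. Of the 29 calls, 29 were kept with edgeR (which added 2), with TMM size factors, with the count minimum and with shrunken fold changes, 28 without independent filtering (Nuf2 was lost) and 26 with total-count size factors (Cdk1, Nuf2 and Ect2 were lost). When 1 library was left out, the number higher was 2 to 7, the number lower 13 to 23 and the median log2 fold change -0.1571 to -0.0635. Leaving out a control leaves 1, which is then assumed to vary like the siUpf1 libraries. With the replicate block 1 gene was higher (Incenp) and 13 were lower. Samples share only the replicate number: deviations of same-numbered libraries correlated at -0.086 and -0.075 over 11898 genes, and no pairing follows from this. That fit has few residual degrees of freedom, so a call lost in it does not by itself show a weaker effect. Upf1 itself stayed between -1.11 and -1.07.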

Other observations

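The regulators of mitotic transcription and the genes of the earlier cell cycle phases moved in both directions. The DREAM and MuvB complexes repress mitotic genes in resting cells and, with B-MYB, activate them in cycling cells. Of their 11 genes 4 rose and 2 fell in DESeq2 (36.4% and 18.2%, against 22.0% and 22.9% of all tested genes). Among tested genes at or above the mean of the lowest mitosis gene the shares were 29.8% and 32.6%. Lin9, a MuvB core subunit, had 871.1 and 870.8 normalised counts in siCtl and 1339, 1273 and 1395 in siUpf1 (log2 fold change 0.62, SE 0.08, DESeq2 adjusted p = 5.94e-14). Tfdp2, a dimerisation partner of E2F factors, rose most (0.74), and Mybl2, which encodes B-MYB, rose from a mean of 1483 to 1837 normalised counts (0.31). Lin37, another core subunit, fell (-0.37, DESeq2 adjusted p = 0.00327), but was not called without siCtl replicate 3 (-0.31, adjusted p = 0.138). Lin54, the subunit that contacts the CHR, had a log2 fold change of 0.11 and was not called (DESeq2 adjusted p = 0.231).

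Among 13 tested genes of G1 cyclins, their kinases and inhibitors 4 rose and 4 fell (30.8% each). These shares were near the 29.8% and 32.6% of tested genes at or above the mean of the lowest mitosis gene. Not all of the 13 reach that mean. Cdkn1a, the p53-induced inhibitor p21, had 2201 and 2102 normalised counts in siCtl and 1447, 1458 and 1276 in siUpf1. It was the largest fall of that list (log2 fold change -0.63, SE 0.07, DESeq2 adjusted p = 1.65e-16), and the inhibitor gene Cdkn2d had the largest rise, from 518.5 to 984.6 (0.92). Of 32 DNA replication genes 8 fell (25.0%) and 3 rose (9.38%), against 22.9% and 22.0% of all tested genes. Among tested genes at or above the mean of the lowest mitosis gene, 32.6% were lower and 29.8% higher. Log2 fold changes of the replication genes had a median of -0.03. They ran from -0.62 for Rfc3, a clamp loader subunit, to 0.53 for Cdc6, which loads the replicative helicase. In that list edgeR called 7 genes higher. DESeq2 called fewer genes lower without siCtl replicate 3, a fit that leaves 1 control. Shares of all tested genes called in these fits are not given here.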
